A study of Mus musculus with 18 samples.

Results

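The 10 genes described here, Mx1, Oas2, Oas1a, Oasl2, Ifit1, Ifit3, Isg15, Irf7, Usp18 and Rsad2, belong to the antiviral programme that cells switch on in response to type I and type III interferons. They were taken from the 18 count tables as the rows whose Ensembl identifier carries one of these symbols in the GENCODE M21 annotation of GRCm38. All 10 were found among 47729 genes, and all 10 passed the filter on low counts that left 14675 genes for testing. The libraries were made from epithelial cells sorted by flow cytometry from the ileum, the last stretch of the small intestine, of female mice. There were 6 libraries from pregnant, 6 from pseudopregnant and 6 from virgin animals. Pseudopregnancy is a luteal state without embryos, so it shares ovarian hormones with pregnancy but not the conceptus. All animals were fed RM3 chow during breeding and RM1 during maintenance and the experiment. The labels give no strain, age, day of pregnancy, mode of inducing pseudopregnancy, hour of collection, sorting marker or batch, and no group carries a named allele. Nor do they state that each replicate came from an animal of its own, so p-values measure the spread between these libraries, which may be technical.

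Type I interferons signal through the receptor IFNAR1–IFNAR2, and type III interferons (interferon lambda) through IFNLR1–IL10RB, whose first chain is largely restricted to epithelia. Both receptors activate the kinases JAK1 and TYK2, which phosphorylate transcription factors such as STAT2. With IRF9 it takes part in the complex ISGF3, which binds interferon-stimulated response elements (ISREs) in the promoters of many genes. In the mouse gut the epithelium answers mainly to interferon lambda, and a low level of these genes is kept up there without infection. The products act at separate points of a viral life cycle: OAS enzymes sense double-stranded RNA, IFIT proteins bind foreign RNA ends, MX1 and viperin (Rsad2) block replication or budding, ISG15 is conjugated to other proteins, USP18 removes it and damps the receptor, and IRF7 drives further interferon transcription.

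Promoter sequence is given because ISGF3 acts through it. The core of the ISRE was searched as GAAANNGAAA, where N is any base, on both strands of the 250 bases before each RefSeq start (RefSeq, GRCm38.p6). Of the 10 genes, 7 had such a window, and 5 of these 7 (71.4%) held at least 1 match, against 978 of all 32841 windows (2.98%) and 936 of all 27018 genes with a window (3.46%). The 5 stretches are given from 5′ to 3′ along the gene, with the bases of the matches in capitals. TTTC as the first capitals marks a match on the opposite strand, and in Oas1a and Isg15 the matches overlap.
Oas1a: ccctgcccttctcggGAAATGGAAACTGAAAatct
Isg15: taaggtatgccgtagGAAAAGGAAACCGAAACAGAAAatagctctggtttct
Ifit1: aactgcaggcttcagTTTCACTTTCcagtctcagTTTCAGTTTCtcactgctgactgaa
Ifit3: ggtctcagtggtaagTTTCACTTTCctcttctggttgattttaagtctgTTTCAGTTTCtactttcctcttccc
Rsad2: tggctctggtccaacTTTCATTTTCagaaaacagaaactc

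The Oas1a stretch lies at chr5:120907526-120907560 on the minus strand, with 2 matches, the first starting at base -20 from the RefSeq start. That of Isg15 lies at chr4:156200860-156200911 on the minus strand, with 3 matches in a row from base -78. The Ifit1 stretch is chr19:34640770-34640828 on the plus strand, with 2 matches from base -104, and that of Ifit3 is chr19:34583358-34583431 on the plus strand, with 2 matches from base -156. Rsad2 had 1 match, at base -120, in chr12:26456548-26456587 on the minus strand. The windows of Oasl2 and Irf7 did not hold these letters, which says nothing of ISGF3 at these genes. Mx1, Oas2 and Usp18 had no window. A match is a run of letters and not a measured binding site.

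The genes lie on 7 chromosomes (GRCm38, GENCODE M21), and all are protein coding. Counts were summed over exons, untranslated regions included. Oas2 (chr5:120730333-120749853) and Oas1a (chr5:120896256-120907521) are on the minus strand of chromosome 5, Oasl2 (chr5:114896936-114912234) is on the plus strand of the same chromosome, and Ifit3 (chr19:34583531-34588731) and Ifit1 (chr19:34640871-34650009) are on the plus strand of chromosome 19. The other genes are Isg15 (chr4:156199424-156200818, minus), Usp18 (chr6:121245906-121270917, plus), Irf7 (chr7:141262706-141266481, minus), Rsad2 (chr12:26442746-26456452, minus) and Mx1 (chr16:97447035-97462907, minus). Some counts are uncertain: Oas1a can share reads with Oas1g and Oas1b, Ifit3 with Ifit3b and Ifit1 with the Ifit1bl genes. Whether reads were counted by strand is not given in the sources used here; reads of Irf7 and of its antisense neighbour Phrf1 may be mixed, as may those of Usp18 and Gm44148 and of Oas2 and Gm43068. In many inbred laboratory strains Mx1 carries a mutation that abolishes the protein. The labels give no strain, and whether such a mutation bears on the Mx1 counts here was not tested.

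Libraries held 24.9 to 37.3 M (mega) counts (median 31.5 M). The tissue label held up: the epithelial gene Epcam stood at 1640 to 3590 CPM (each library's counts divided by its TMM-scaled total in M) and the ileal bile acid binding protein Fabp6 at 1730 to 14300 CPM in the 18 libraries. The pan-leukocyte gene Ptprc stood at 0.198 to 0.638 CPM. The T cell gene Cd3e was at 0 in 7 libraries and the plasmacytoid dendritic cell gene Siglech in 16. Other genes listed for such cells were present in all 18 libraries. Among them were Gzma of lymphocytes (0.0562 to 1.66 CPM), Lcp1 of leukocytes (2.82 to 7.4 CPM) and Lyz2 of myeloid cells (7.76 to 34.5 CPM). No gene of the 14675 passed an adjusted p of 0.05 in any comparison with edgeR's quasi-likelihood test (0%). DESeq2 called 5 genes between pregnant and virgin mice and none in the other comparisons of 2 groups, limma-voom called none in any, and no antiviral gene was among the 5.

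Compared per kilobase of exon, the antiviral genes covered a wide range of transcript levels. Isg15 (35.3 ± 20.4 CPM per kb, mean ± SD over 18 libraries) and Irf7 (32.9 ± 13.4) were the most abundant, and Isg15 was above Irf7 in only 8 of 18 libraries, so their order is not settled. Oas1a (20.3 ± 8.11 CPM per kb) and Ifit1 (20.2 ± 10.2) likewise did not differ beyond their spread, with Oas1a above in 12 libraries. Oasl2 (9.09 CPM per kb) and Ifit3 (4.95) came next, each below its upper neighbour in 18 of 18 libraries. The order depends on the length used, which merges the exons of all annotated transcripts. For Oasl2 it was 6374 bases from 9 transcripts, against 2656 bases from 1 for Ifit1. Before division by length Oasl2 averaged 57.94 CPM, above Ifit1 (53.71) and Oas1a (38.19). Which transcripts were in use was not tested. Rsad2 (2.56 ± 1.45 CPM per kb) and Usp18 (2.32 ± 1.39) were close, with Rsad2 above in 14, while Usp18 was above Mx1 (0.915) in 15 and Mx1 above Oas2 (0.309) in 18. The levels did not sort by function: Isg15 was near the top and Usp18, whose product removes ISG15, near the bottom. The transcripts of Mx1 and Oas2 were on average the scarcest of the 10, and Oas2 had 10 to 177 reads a library.

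**Figure D1:**
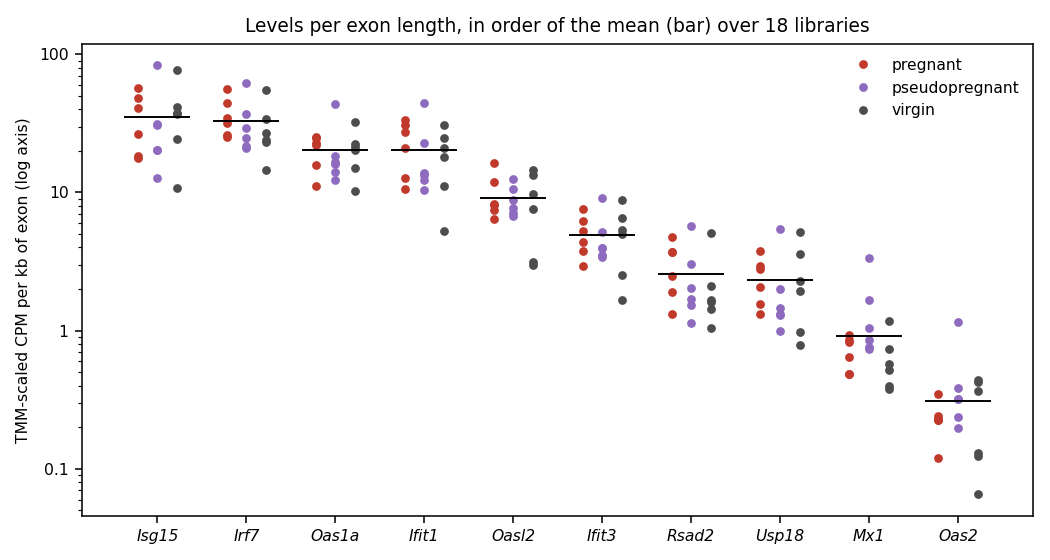
Levels of the 10 genes per kilobase of exon (TMM-scaled CPM per kb, log axis), 1 point per library (6 pregnant, 6 pseudopregnant, 6 virgin), with a bar at the mean over the 18 libraries. Isg15 at 35.3 and Irf7 at 32.9 CPM per kb lead, and Oas2 at 0.309 is last.

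Between pregnant and virgin mice none of the 10 antiviral genes passed the test, and the groups overlapped for every one. The regulator Irf7 stood at 94.5, 125.6 and 211.3 CPM in pregnant (lowest, median and highest of 6 libraries), 78.8, 102 and 234 CPM in pseudopregnant and 55.0, 96.3 and 209 CPM in virgin mice. Each group had 1 library near or above 209 CPM, and 5 of 6 pregnant libraries lay above the virgin median. Its log2 fold change was 0.29 for pregnant over virgin (SE 0.30, 95% interval -0.34 to 0.92, edgeR adjusted p = 0.892), 0.13 for pseudopregnant over virgin (SE 0.30, adjusted p = 0.834) and 0.16 for pregnant over pseudopregnant (SE 0.30, adjusted p = 0.932). In bulk RNA, fewer cells that express a gene and less RNA per cell cannot be told apart.

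Isg15, the ubiquitin-like modifier, stood at 13.5, 25.6 and 43.0 CPM in pregnant, 9.67, 19.4 and 62.9 CPM in pseudopregnant and 8.12, 28.2 and 57.9 CPM in virgin mice. High and low libraries occurred in all 3 groups, and the lowest and the highest of the virgin libraries enclosed all 6 pregnant ones. The log2 fold change was -0.12 for pregnant over virgin (SE 0.44, 95% interval -1.05 to 0.80), -0.20 for pseudopregnant over virgin (SE 0.44) and 0.072 for pregnant over pseudopregnant (SE 0.44). Usp18, the protease that strips ISG15 from its targets and limits type I receptor signalling, stood at 3.67, 6.80 and 10.4 CPM in pregnant, 2.78, 3.88 and 15.1 CPM in pseudopregnant and 2.19, 5.89 and 14.5 CPM in virgin mice. Here too the pregnant range lay inside the virgin one, and 1 pseudopregnant library was far above the other 5. Its log2 fold changes were -0.037 (SE 0.45, 95% interval -0.97 to 0.90), -0.25 (SE 0.45) and 0.21 (SE 0.45) in the same 3 comparisons.

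The oligoadenylate synthetase Oas1a stood at 20.9, 42.3 and 47.6 CPM in pregnant, 23.3, 30.8 and 82.0 CPM in pseudopregnant and 19.3, 39.0 and 61.4 CPM in virgin mice. The 3 group means were almost equal (38.2 ± 10.6, 38.1 ± 21.9 and 38.3 ± 14.2 CPM, SD, n = 6 each). The log2 fold change for pregnant over virgin was -0.0017 (SE 0.30), with a 95% interval from -0.63 to 0.62 that leaves room for about 1.54-fold in either direction. Oasl2, an OAS-like protein with a ubiquitin-like tail, stood at 41.3, 52.4 and 103.4 CPM in pregnant, 43.4, 52.7 and 79.8 CPM in pseudopregnant and 19.0, 55.3 and 93.4 CPM in virgin mice. The 2 lowest Oasl2 libraries of the series were virgin. Its log2 fold changes were 0.18 for pregnant over virgin (SE 0.34), 0.058 for pseudopregnant over virgin (SE 0.34) and 0.12 for pregnant over pseudopregnant (SE 0.34).

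Ifit1, which binds RNA lacking the host cap methylation, stood at 28.1, 64.3 and 88.2 CPM in pregnant, 27.5, 36.02 and 117.8 CPM in pseudopregnant and 14.0, 51.9 and 82.3 CPM in virgin mice. The pseudopregnant group held the highest library and also the lowest median. The log2 fold changes were 0.29 for pregnant over virgin (SE 0.40, 95% interval -0.56 to 1.13), 0.074 for pseudopregnant over virgin (SE 0.40) and 0.21 for pregnant over pseudopregnant (SE 0.40). Ifit3, a partner of IFIT1 in RNA-binding complexes, stood at 5.11, 8.41 and 13.2 CPM in pregnant, 5.91, 6.89 and 15.8 CPM in pseudopregnant and 2.92, 9.07 and 15.4 CPM in virgin mice. Its group means were 8.76 ± 2.95, 8.45 ± 3.77 and 8.70 ± 4.56 CPM in pregnant, pseudopregnant and virgin mice (SD, n = 6 each). The log2 fold changes were 0.0068 (SE 0.34), -0.046 (SE 0.34) and 0.053 (SE 0.34) in the 3 comparisons.

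Rsad2, which encodes the radical-SAM enzyme viperin, stood at 5.72, 13.4 and 20.7 CPM in pregnant, 4.92, 8.08 and 24.9 CPM in pseudopregnant and 4.56, 7.13 and 22.05 CPM in virgin mice. A single library in each of the pseudopregnant and virgin groups was well above the other 5, and 5 of 6 pregnant libraries exceeded the virgin median. The log2 fold change for pregnant over virgin was 0.47 (SE 0.41, 95% interval -0.40 to 1.33, edgeR adjusted p = 0.891), the highest of the 10 genes in that comparison. Without virgin replicate 3 it was 0.92 with an adjusted p of 0.338. Against pseudopregnant mice it was 0.24 (SE 0.41).

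Mx1 and Oas2 were highest in pseudopregnant replicate 4, whereas 7 of the other 8 genes were highest in pseudopregnant replicate 1. Mx1, a dynamin-like GTPase best known for blocking influenza virus in the mouse nucleus, stood at 1.83, 2.79 and 3.49 CPM in pregnant, 2.79, 3.61 and 12.7 CPM in pseudopregnant and 1.42, 2.08 and 4.47 CPM in virgin mice. All 6 pseudopregnant libraries lay above the virgin median, but the groups overlapped, since virgin replicate 3 at 4.47 CPM exceeded 4 of the pseudopregnant libraries. The log2 fold change was 1.16 for pseudopregnant over virgin (SE 0.37, 95% interval 0.40 to 1.93), with an unadjusted p of 0.00491 and an adjusted p of 0.515 in edgeR's test. For pregnant over pseudopregnant it was -0.9999 (SE 0.36, 95% interval -1.76 to -0.24, unadjusted p = 0.0125, adjusted p = 0.92), and for pregnant over virgin 0.16 (SE 0.37). Pseudopregnant replicate 4, at 12.7 CPM, carried much of this: without it the values were 0.69 for pseudopregnant over virgin (adjusted p = 0.785) and -0.52 for pregnant over pseudopregnant (adjusted p = 1). Without that library the unadjusted p of Mx1 in edgeR's test was still under 0.05 for pseudopregnant over virgin, as for 635 of 14768 genes. For pregnant over pseudopregnant it was not. With all 18 libraries, an F test of any difference among the 3 groups gave Mx1 an unadjusted p of 0.0073 and an adjusted p of 0.753. Without pseudopregnant replicate 4 the unadjusted p of the F test was not under 0.05. The following counts are for all 18 libraries. In the F test edgeR called 0 of 14675 genes after adjustment (0%), limma-voom 0 and DESeq2 1. In edgeR 669 genes (4.56%) had an unadjusted p under 0.05, Mx1 alone among the 10.

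Oas2, a synthetase with a pair of catalytic-type domains, stood at 0.537, 1.02 and 1.55 CPM in pregnant, 0.875, 1.43 and 5.13 CPM in pseudopregnant and 0.292, 1.10 and 1.97 CPM in virgin mice. Outside pseudopregnant replicate 4 no library reached 2 CPM. The log2 fold changes were -0.17 for pregnant over virgin (SE 0.48), 0.76 for pseudopregnant over virgin (SE 0.45, 95% interval -0.19 to 1.71) and -0.93 for pregnant over pseudopregnant (SE 0.46, 95% interval -1.89 to 0.035, adjusted p = 0.92). Without pseudopregnant replicate 4 the last 2 were 0.17 and -0.34.

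**Figure D2:**
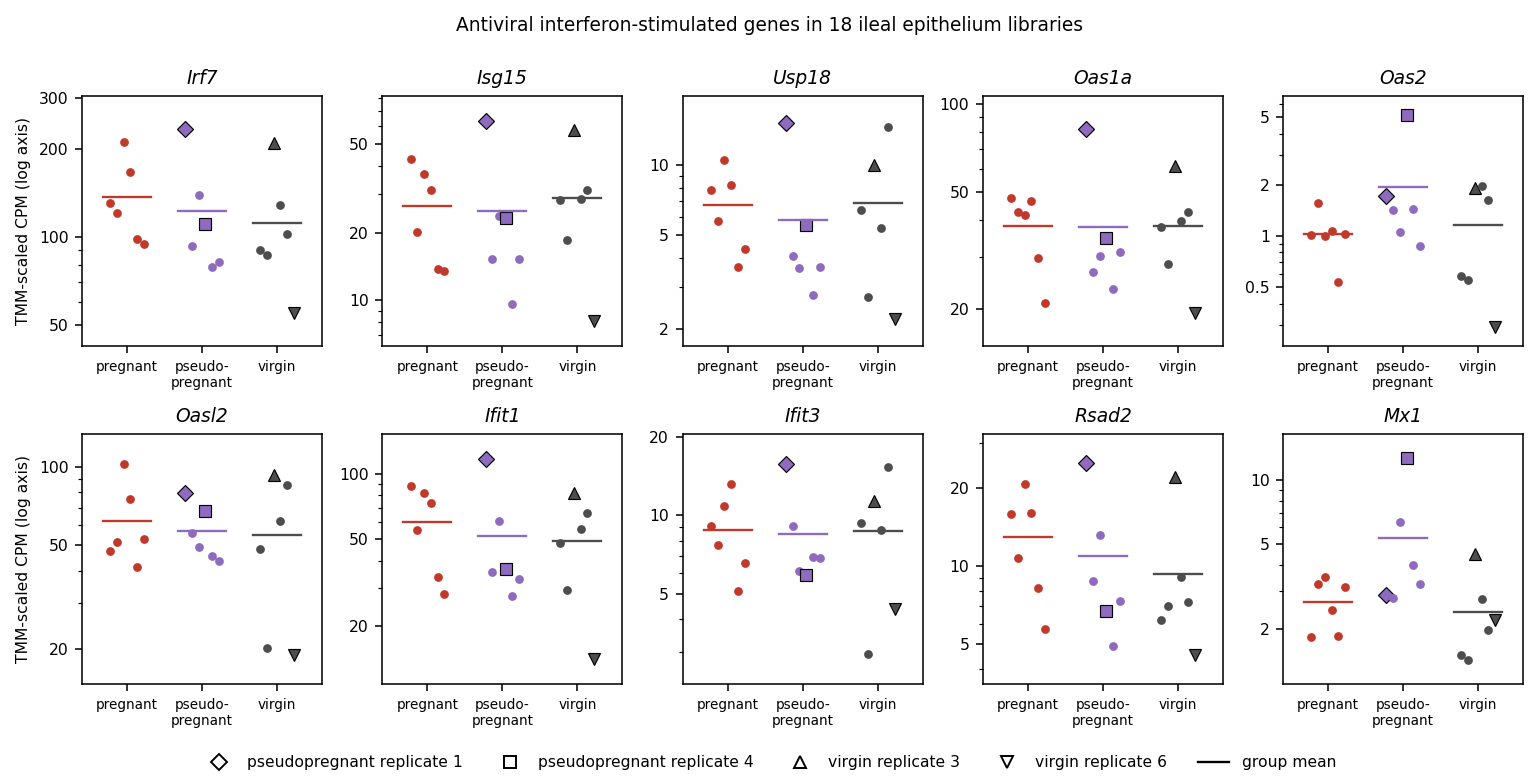
TMM-scaled CPM (log axis) of each gene in the 6 pregnant, 6 pseudopregnant and 6 virgin libraries, with a bar at each group's mean and 4 libraries marked by shape. The groups overlap for every gene; pseudopregnant replicate 1 is highest of the 18 for 7 genes, pseudopregnant replicate 4 for Mx1 and Oas2, and virgin replicate 6 is lowest for 8.

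Counted over the 10 genes, 0 passed an adjusted p of 0.05 in each comparison, as did 0 of all 14675 genes (0%). At an unadjusted p under 0.05 edgeR gave 0 of 10 for pregnant over virgin, against 540 of all genes (3.68%; 2.02% higher and 1.66% lower). For pseudopregnant over virgin it gave 1 of 10, Mx1, which was higher, against 1375 of all genes (9.37%; 7.36% higher and 2.01% lower). For pregnant over pseudopregnant it gave 1 of 10, again Mx1, which was lower, against 345 of all genes (2.35%; 0.763% higher and 1.59% lower). DESeq2 gave 627, 1504 and 389 genes at that level and limma-voom 528, 1107 and 247. These shares are read as background, and 1 of 10 is no result about the group of genes. No antiviral gene separated the libraries of 2 groups completely, which 10 of all genes did for pregnant over virgin (0.0681%), 10 for pseudopregnant over virgin (0.0681%) and 4 for pregnant over pseudopregnant (0.0273%).

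Fold changes were positive for 6 of 10 antiviral genes in pregnant over virgin (48.5% of all genes), 6 in pseudopregnant over virgin (50.6%) and 8 in pregnant over pseudopregnant (48.4%). The comparisons share groups and most of the genes are correlated, so the counts are not independent. Medians over the 10 genes were 0.084, 0.0659 and 0.0977 on the log2 scale, beside -0.00761, 0.0045 and -0.00833 for all genes tested. These counts turned on the method and on single libraries. For pregnant over virgin 9 of 10 were positive with limma-voom (median 0.185) and 8 with the replicate number as a block (median 0.162). Upper quartile scaling in place of TMM gave 5 (median 0.0534). A score of villus against crypt genes as a covariate, described below, gave 3 (median -0.114). Without virgin replicate 3 all 10 were positive for pregnant over virgin (median 0.302), and without pseudopregnant replicate 1 only 2 were positive for pseudopregnant over virgin (median -0.27), or 3 without virgin replicate 6. Without pregnant replicate 3 only 3 were positive for pregnant over pseudopregnant (median -0.0178). The standard errors of the 10 genes had a median of 0.388, 0.384 and 0.383, against 0.202 for all genes in each comparison, so these comparisons were less precise than those of a typical gene.

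**Figure D3:**
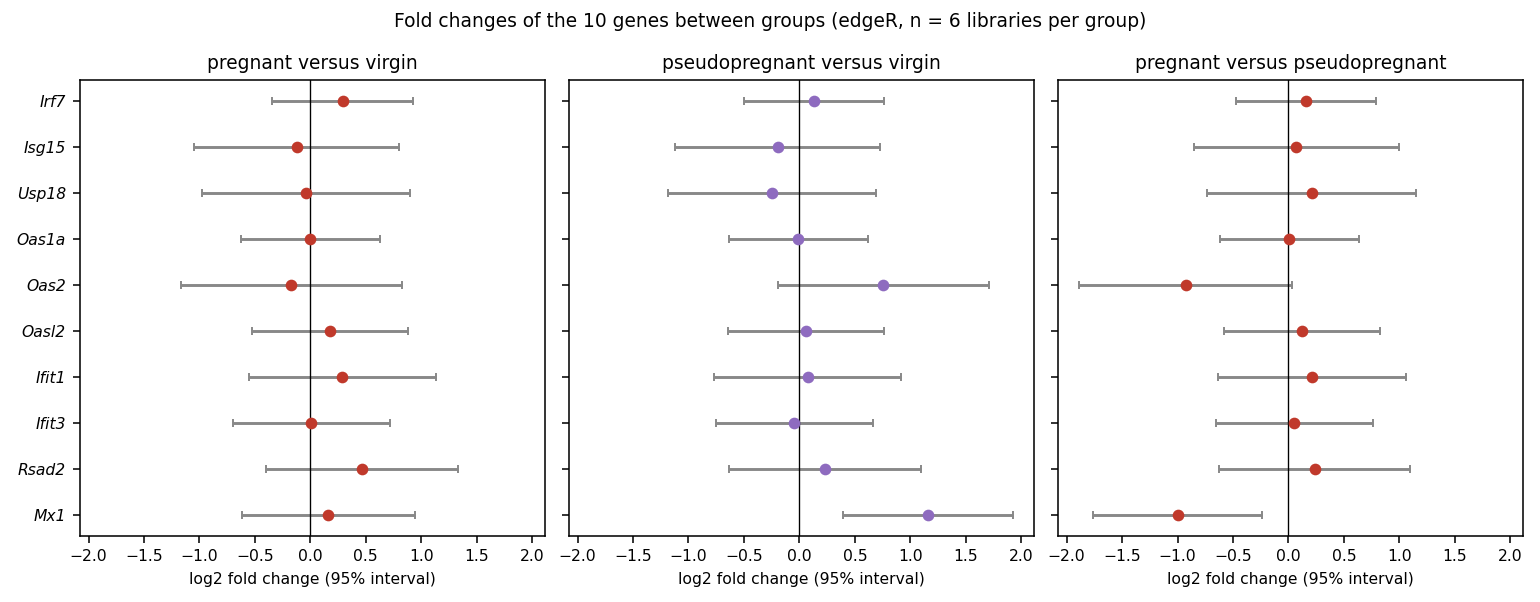
Log2 fold changes of the 10 genes with 95% intervals from edgeR (n = 6 libraries per group) for the 3 comparisons. All intervals but those of Mx1 in the 2 comparisons with pseudopregnant mice include 0, and Mx1 did not pass the adjusted threshold in either.

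What the antiviral genes shared was variation from library to library, present in every group. Their SD of log2 CPM within groups was 0.563 to 0.864, at percentile 82.1 to 96.8 of all genes tested, whose median was 0.36. The group means took up 35.4% of the variance of Mx1 over the 18 libraries and 16.1% of that of Oas2. For the other 8 genes this share was 0.568% to 9.03%, beside a median of 11.8% over all genes. The shares of Mx1 and Oas2 include pseudopregnant replicate 4, where they lay 2.085 and 2.108 above their means on the log2 scale.

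A mean deviation of the 10 genes (log2 CPM minus the gene's mean over 18 libraries) ordered the libraries. In pregnant mice it ran from -0.519 in replicate 5 to 0.603 in replicate 3, with a median of 0.193. Pseudopregnant mice spanned -0.482 in replicate 5 to 0.987 in replicate 1, with a median of -0.0504, and virgin mice -1.21 in replicate 6 to 0.842 in replicate 3, with a median of -0.0182. As a fold between the highest and lowest library of a group these are 2.18 in pregnant, 2.77 in pseudopregnant and 4.145 in virgin mice. High and low libraries were thus found side by side in each group. Virgin replicate 6 was the lowest of 18 for 8 genes, and virgin replicate 2 for the other two, Mx1 and Ifit3. Pseudopregnant replicate 1 was the highest for 7, pregnant replicate 3 for Oasl2, and pseudopregnant replicate 4 for Mx1 and Oas2. All 10 genes were above their mean in virgin replicate 3, and none was in pregnant replicate 5, virgin replicate 2 or virgin replicate 6.

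**Figure D4:**
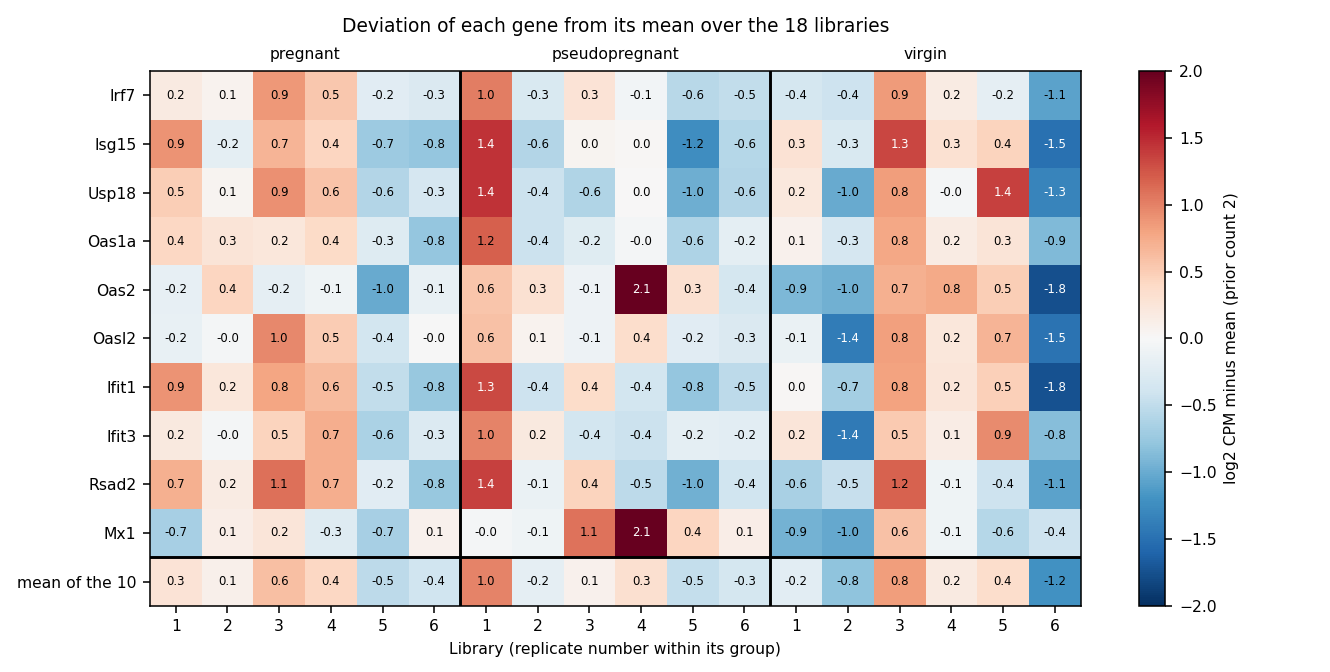
Deviation of each gene's log2 CPM (prior count 2) from its mean over the 18 libraries, by library, with the mean of the 10 genes in the bottom row; red is above and blue below the gene's mean. Columns tend to share a colour in most rows, while Mx1 and in part Oas2 depart from them, each with 2.1 in pseudopregnant replicate 4 beside -0.4 for Ifit1.

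Over the 18 libraries the 45 pairs of antiviral genes had a median Spearman correlation of 0.707 (from -0.003 to 0.963, 44 positive). It was 0.715 after subtraction of the group means and 0.612 without the 2 libraries farthest from the median, virgin replicate 6 and pseudopregnant replicate 1. Ifit1 and Isg15 were the closest pair (Spearman 0.96). Leaving out Mx1 and Oas2, the 28 remaining pairs ran from 0.59 to 0.96 with a median of 0.79. Against the mean of the other 9 genes Mx1 stood at 0.24 and Oas2 at 0.60, while the other 8 ran from 0.73 to 0.88. Mx1 and Oas2 correlated with each other at a Pearson r of 0.71, a value that includes pseudopregnant replicate 4, and a Spearman rho of 0.54. Genes of a library share its depth and cell composition, so these correlations are descriptions and carry no test.

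Across the 12488 other genes with a mean of at least 1 CPM, Spearman's correlation with the mean deviation had a median of -0.01 and a 99th percentile of 0.72. The 10 most alike were Zbp1 (0.91), Parp10 (0.91), Irf9 (0.90), Trim12a (0.90), Oas1g (0.89), Trafd1 (0.88), Rnf19b (0.87), Parp12 (0.86), Rtp4 (0.86) and H2-Q7 (0.86), in each case over 18 libraries. Zbp1, a sensor of left-handed nucleic acid, ranged from 5.05 to 51.3 CPM. Irf9, the DNA-binding subunit of ISGF3, ranged from 21 to 44.4 CPM. Oas1g can share reads with Oas1a. Of the 7 with a promoter window, 1 (Oas1g) held the ISRE core.

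The interferons themselves were at or near 0. Of 21 type I, II and III interferon genes, 15 had no read in any of the 18 libraries, Ifnb1 and Ifng among them. The highest count of any was 6 reads in 1 library, for Ifnz, which had 35 reads in all. The lambda genes Ifnl2 and Ifnl3 had 2 and 1 reads in all. A count of 0 allows up to 3 reads, which is 0.0805 to 0.12 CPM per library and covers counting error only. None could be tested, and a ligand made by other cells would not be seen in sorted epithelium.

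Receptors for both ligand families were present. Ifnlr1, the lambda-specific chain, averaged 17 ± 4.55 CPM in pregnant, 15.8 ± 2.22 in pseudopregnant and 14.5 ± 3.41 in virgin mice (SD, n = 6). Il10rb, its partner, averaged 72.4 ± 8.01, 65.2 ± 15.2 and 67.3 ± 5.66 CPM in the same order of groups. The type I chains Ifnar1 and Ifnar2 averaged 33.5 and 4.79 CPM over all 18 libraries. Per kilobase of exon, Ifnlr1 stood at 3.77, Il10rb at 17.9, Ifnar1 at 5.64 and Ifnar2 at 1.44 CPM per kb. None of the 6 receptor genes, the interferon gamma receptor included, passed the test in any comparison, and their medians were 0.157 for pregnant over virgin, -0.00584 for pseudopregnant over virgin and 0.113 for pregnant over pseudopregnant.

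Of the signalling chain, Stat2 and Irf9 had high correlations with the antiviral genes over the libraries and the kinases Jak1 and Tyk2 had low ones. Spearman's correlation with the mean deviation was 0.79 for Stat2 and 0.90 for Irf9, but 0.02 for Jak1 and 0.12 for Tyk2. Among receptors it was 0.54 for Ifnlr1, 0.56 for Ifnar2, 0.44 for Il10rb and 0.11 for Ifnar1. The ISG15 activating enzyme Uba7, the conjugating enzyme Ube2l6 and the ligase Herc6 stood at 0.80, 0.74 and 0.86, and the feedback inhibitor Socs1 at 0.60. None of these genes differed between groups after adjustment. Jak1 averaged 89.3 ± 16.6 CPM in pseudopregnant against 70.3 ± 15.1 CPM in virgin mice (log2 fold change 0.35, unadjusted p = 0.0423, edgeR adjusted p = 0.515), and for pregnant over virgin its unadjusted p was 0.0929.

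Markers of cell position along the villus also moved with the antiviral level. The villus-minus-crypt score, which sets 20 genes of absorptive enterocytes against 30 of dividing crypt cells, had a Pearson r of 0.64 and a Spearman rho of 0.54 with the mean deviation over 18 libraries (r of 0.60 without the 2 farthest libraries). The enterocyte genes alone stood at r = 0.72 and rho = 0.64, and the proliferation genes at r = -0.54 and rho = -0.39. The summed enterocyte genes ran from 33200 to 67100 CPM in pregnant, 29100 to 55300 in pseudopregnant and 27300 to 68500 in virgin mice. With the score as a covariate, the median fold change of the 10 genes was -0.114 for pregnant over virgin, -0.011 for pseudopregnant over virgin and -0.095 for pregnant over pseudopregnant, with 3, 5 and 3 of 10 positive. The part of villus and crypt cells in the variation of the antiviral genes was not tested.

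Of other cells, 12 genes of T cells and innate lymphocytes summed to 0.591 to 2.82 CPM in pregnant, 0.534 to 4.87 in pseudopregnant and 0.526 to 3.35 in virgin mice, and correlated with the mean deviation at r = 0.61 and rho = 0.63. Of the 12 genes, none was at 0 in every library and 2 passed the filter on low counts. Pseudopregnant replicate 4, where Mx1 and Oas2 were highest, had the sum of 4.87 CPM. The part of lymphocytes was not tested. A general list of 9 leukocyte genes ran from 5.35 to 10.5, 6.5 to 11.9 and 5.18 to 8.17 CPM in pregnant, pseudopregnant and virgin mice and did not follow the antiviral genes (r = 0.04, rho = -0.02). Summed genes of some other cell types ran against the antiviral level, and those of others did not. The r was -0.48 for the myeloid and dendritic list, -0.47 for Paneth cells (-0.62 without the 2 farthest libraries), -0.45 for stem cells and -0.44 for tuft cells. It was 0.37 for enteroendocrine cells, 0.28 for B and plasma cells, 0.1 for goblet cells and 0.08 for stroma and endothelium. Without the 2 farthest libraries these last values were 0.12, 0.11, -0.17 and -0.09. In every library Lyz2 (7.76 to 34.5 CPM) was the highest gene of the myeloid and dendritic list. Lcp1 (2.82 to 7.4 CPM) was the highest of the leukocyte list. These 2 sums therefore lean on single genes and may not describe the cells they are named for. The part of these cells was not tested. Sequencing depth stood at r = -0.08 and the mitochondrial share of counts at r = 0.

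**Figure D5:**
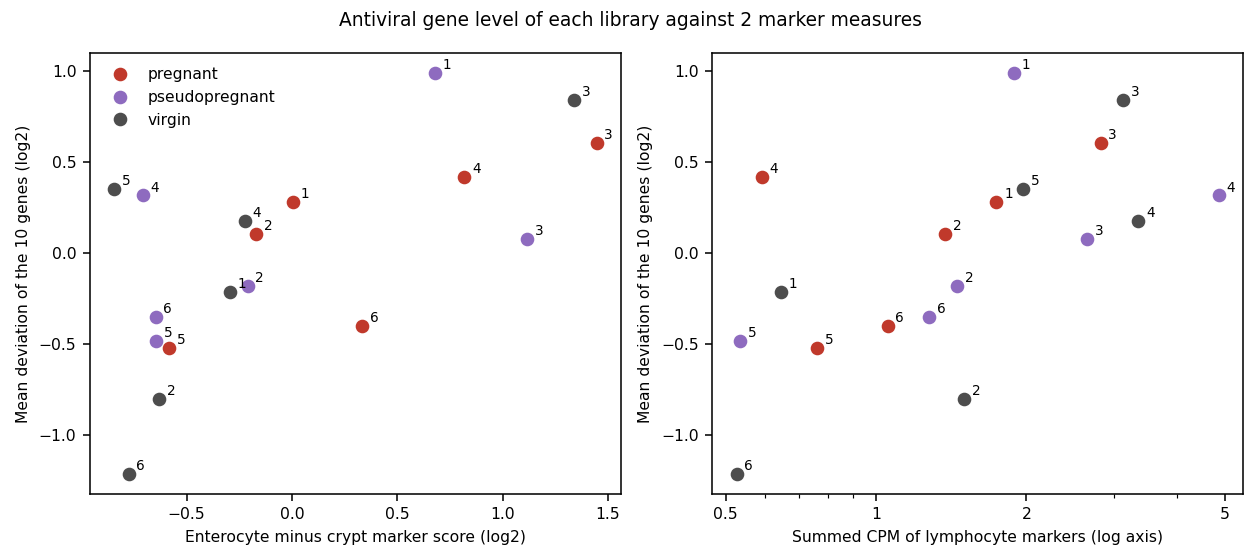
Mean deviation of the 10 genes (log2, y axis) in each library against the villus-minus-crypt marker score (log2, left) and the summed CPM of T cell and innate lymphocyte genes (log axis, right); numbers are replicates. The Pearson r is 0.64 on the left and 0.61 on the right (n = 18), and each group spans most of the range.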

How the data were processed

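Per the labels' protocols, RNA of the sorted cells (RNeasy Plus Micro) was poly(A)-enriched and made into NEBNext Ultra II Directional libraries. The deposited tables, 1 for each library, list raw counts of reads for Ensembl genes and are not normalized. Per the submitters' processing notes, the build was GRCm38 and the tools named are HISAT2 2.0.4, Subread 2.0.0 with featureCounts, FastQC 0.11.5 and DESeq2 1.24.0. How strand was treated, and which annotation was counted, is not given in the sources used here. GENCODE M21 gave symbols for 47310 of 47729 genes; the other 419 took up to 0.029% of counts. No 2 replicates agreed within sampling noise (chi-square divided by its degrees of freedom 35.5 to 456, 45 pairs).

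The titles gave groups and replicate numbers. Counts were filtered with edgeR's filterByExpr (14675 genes), scaled by TMM and fitted with edgeR 4.0.16 in R 4.3.3 (quasi-likelihood, legacy = FALSE, 1 mean per group, 18 libraries). Tests were two-sided with Benjamini-Hochberg adjustment over all genes tested and called at 0.05. Fold changes are on the log2 scale. The edgeR fit was tested on simulated counts. Correlations used log2 CPM with a prior count of 2, and log2 of summed CPM for marker lists. The 10 genes, the gene and marker lists and the tests were chosen with earlier results of these data known. All 10 genes are named, with a fixed set of receptors and signalling genes, the 2 genes of smallest p per list and comparison, and the 10 genes most alike. Tyk2, the interferon genes and most single marker genes were singled out after their values were seen. Alternatives were DESeq2's size factors, upper quartile scaling, no low-count filter, a CPM minimum of 1 in 6 libraries, limma-voom (limma 3.58.1), DESeq2 1.42.0, the replicate number as a block, the villus-minus-crypt score or leukocyte level as covariate, only the 12 libraries compared, and each library left out. Leaving out libraries, and the villus covariate, for the pathway lists were added after the data were seen. Some genes of the lists are not reported here.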

Additional observations from a re-analysis of the deposited data

Results flagged for a closer look

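In groups of 6, a library stood apart where its gap to the nearest other was above Dixon's 95% critical share of the group's range. For normally distributed values chance gives this in about 1 of 20 groups. The rule was applied to CPM and not to log2 CPM, and whether the CPM values were normally distributed was not tested. In all, 30 sets, 10 genes in 3 groups, were examined and 8 exceeded the critical share. Pseudopregnant replicate 1 stood apart for 5 genes: Oas1a at 82.0 CPM, Ifit1 at 118 CPM, Ifit3 at 15.8 CPM, Isg15 at 62.9 CPM and Usp18 at 15.1 CPM. The other 5 pseudopregnant libraries reached at most 34.9 CPM for Oas1a and 60.8 CPM for Ifit1. Pseudopregnant replicate 4 stood apart for Mx1 at 12.7 CPM and Oas2 at 5.13 CPM, where it was unremarkable for Oas1a at 34.9 CPM and Ifit1 at 36.6 CPM. Virgin replicate 3 stood apart for Rsad2 at 22 CPM, against at most 9.09 CPM in the other 5 virgin libraries. The genes are correlated, so the 8 cases are not independent. In all 8 the library was the highest of its group. For these reasons 8 of 30 is not set against the rate of 1 in 20.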

How the results depend on the processing

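None of the 10 genes passed the adjusted threshold in any comparison under any alternative run, and in the 3 comparisons of 2 groups the number over all genes stayed at 0 except for pregnant over virgin. There DESeq2 called 5 (Gm42427, Bco1, Cyp3a44, Mbl2 and Slc31a1) and the replicate block 1 (Gm42427, adjusted p = 0.0166). The fold changes of Mx1, Irf7 and Rsad2 for pregnant over virgin, of Mx1 and Oas2 in both comparisons with pseudopregnant mice, and of Ifit1, Usp18 and Rsad2 for pregnant over pseudopregnant kept their sign under every alternative run. The others crossed 0 under at least 1, and all were uncalled. For pregnant over virgin this happened for Oas1a with DESeq2's size factors (0.0079), DESeq2 (0.0082), limma-voom (0.025), the replicate block (0.00013), the leukocyte covariate (0.020) and only the 12 libraries compared (0.0029). It also happened for Ifit3 with upper quartile scaling (-0.027), for Oas2 (0.096) and Usp18 (0.14) with limma-voom, for Usp18 with the block (0.074), and with the villus-minus-crypt covariate for Oasl2 (-0.063), Ifit1 (-0.019) and Ifit3 (-0.22). For pseudopregnant over virgin it did for Ifit3 with limma-voom (0.043) and the block (0.021), Ifit1 with the villus covariate (-0.099) and Oas1a with the leukocyte covariate (0.050). For pregnant over pseudopregnant, the villus covariate gave -0.093 for Oas1a, -0.11 for Oasl2, -0.097 for Ifit3, -0.10 for Isg15 and -0.046 for Irf7, and the leukocyte covariate -0.030 for Oas1a. The causes were not tested.

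With single libraries left out, fold changes that crossed 0 ranged as follows. For pregnant over virgin the ranges were Oas2 -0.38 to 0.049, Oas1a -0.14 to 0.18, Oasl2 -0.024 to 0.40, Ifit3 -0.18 to 0.25, Isg15 -0.32 to 0.20, Usp18 -0.22 to 0.33. For pseudopregnant over virgin they were Oas1a -0.40 to 0.18, Oasl2 -0.13 to 0.28, Ifit1 -0.36 to 0.28, Ifit3 -0.34 to 0.19, Isg15 -0.73 to 0.13, Irf7 -0.17 to 0.41, Usp18 -0.82 to 0.12, Rsad2 -0.20 to 0.68. For pregnant over pseudopregnant they were Oas1a -0.10 to 0.40, Oasl2 -0.081 to 0.26, Ifit3 -0.10 to 0.34, Isg15 -0.11 to 0.60, Irf7 -0.0078 to 0.45. Replicate numbers were not taken to pair libraries, since not every pair correlated above 0.1. This rule does not show that pairing is absent. With the replicate number as a block, edgeR gave 979 genes an unadjusted p under 0.05 for pregnant over virgin, against 540 without it. The counts were 1988 against 1375 for pseudopregnant over virgin and 618 against 345 for pregnant over pseudopregnant. The deviations of same-numbered libraries of different groups had a median r of 0.13 over 18 pairs (-0.48 to 0.66, 10 above 0.1), against -0.04 over 90 pairs of different numbers (30 above 0.1). All pairs of replicates 1, 3 and 5 were above 0.1 (0.118 to 0.662), and 5 of 18 libraries correlated best with their own number. Depth limited Oas2 most, with 10 to 177 reads a library.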

Other observations

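Genes that lie around the antiviral set in the interferon pathway gave no call in any comparison with edgeR after adjustment. Of 19 genes of the interferon gamma response, guanylate-binding proteins and immunity-related GTPases that attack intracellular pathogens with their regulators, 17 were tested. All 17 had a positive fold change for pregnant over virgin (48.5% of all genes; median 0.792 on the log2 scale, beside -0.00761 for all genes) and for pregnant over pseudopregnant (48.4% of all genes; median 0.791), and 7 for pseudopregnant over virgin (50.6% of all genes; median -0.141, with 4 to 12 positive when single libraries were left out). The first 2 comparisons share the pregnant libraries. Nor are the 17 genes independent. Their Spearman correlations with the mean deviation of the antiviral genes had a median of 0.73 (0.49 to 0.85). The count of 17 of 17 is thus not 17 separate results. Of these, 2, 3 and 0 genes had an unadjusted p under 0.05 in pregnant over virgin, pregnant over pseudopregnant and pseudopregnant over virgin, against 3.68%, 2.35% and 9.37% of all genes. Pregnant replicate 3 weighed on both: without it 15 of 17 were positive for pregnant over virgin (median 0.346) and 16 for pregnant over pseudopregnant (median 0.515). With that villus and crypt measure in the model the medians were 0.323 and 0.425. The GTPase Gbp6 averaged 20.6 ± 15.5 CPM in pregnant, 8.1 ± 3.68 in pseudopregnant and 9.13 ± 7.55 in virgin mice, with a log2 fold change of 1.17 for pregnant over virgin (SE 0.51, edgeR adjusted p = 0.891). The chemokine Cxcl10 averaged 6.93 ± 11.2 CPM in pregnant against 1.48 ± 0.951 in pseudopregnant mice (log2 fold change 2.23, unadjusted p = 0.00529, edgeR adjusted p = 0.92), and 0.68 without pregnant replicate 3.

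No gene of the other lists passed the adjusted threshold either. The 12 tested relatives of the OAS, IFIT and MX families had medians of 0.0117 for pregnant over virgin, 0.0179 for pseudopregnant over virgin and -0.061 for pregnant over pseudopregnant, and a median Spearman correlation of 0.77 with the mean deviation of the 10 genes. The 46 other antiviral genes tested had medians of 0.0927, 0.0304 and 0.0223 in the same 3 comparisons. Of 10 tested nucleic acid sensors, 7, 9 and 7 were positive (medians 0.215, 0.161 and 0.0653). The 12 tested sensor adaptors, kinases and interferon regulatory factors had medians of 0.136, 0.0944 and 0.0497, and the 6 inhibitors of receptor signalling 0.154, 0.0494 and 0.0907. The 6 receptor signalling genes had medians of 0.25, 0.213 and 0.0263, with 6, 5 and 4 positive, and the 3 ISG15 conjugation enzymes 0.182, -0.0932 and 0.183. The sensor adaptor Mavs averaged 57.6 ± 11 CPM in pregnant and 57.3 ± 5.58 in pseudopregnant, against 45.0 ± 7.13 CPM in virgin mice, with log2 fold changes over virgin of 0.36 and 0.35 (edgeR adjusted p = 0.891 and 0.515).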
